A study of Mus musculus with 2 samples.

Results

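Giant cytolinkers tie the filament systems of the cytoskeleton to each other and to membranes, and a set of smaller envelope proteins carries those ties into the nucleus. The genes described here are Ahnak, Dst, Macf1, Plec, Syne1, Syne2, Syne3, Sun1, Sun2 and Lmna, 10 of the 31017 genes in the count table. They were taken by name after being chosen by their levels and by the ratio between the libraries, so these values are a description with no test. The RNA came from TUBO, a mammary cancer line from a BALB/c mouse whose tumour was driven by a rat Her2/neu transgene, grown untreated and flat on plastic in DMEM/F12 with serum. The labels give 1 group of 2 libraries and do not say whether these were separate cultures, so the spread between them may be technical. Replicate 1 held 35453278 counts and replicate 2 held 34098259. Levels are CPM, counts scaled to the library total with TMM factors. A gene with no count may still have a level of up to 3 counts, which is 0.0842 and 0.0885 CPM. Of the marker genes, 6 of 6 epithelial genes were detected, meaning 1 CPM or more in each library, with summed levels of 5486 and 5261 CPM. Of the muscle markers 1 of 6 was detected (Ttn; summed 2.05 and 2.39 CPM), and Des, Myh2 and Myog had no count. Of the neural and glial markers 1 of 6 was detected (Mbp; summed 49.0 and 46.1 CPM), and Tubb3 and Snap25 had no count. Of the fibroblast markers 2 of 6 were detected (Postn and Pdgfra, summed over the list 20.0 and 19.8 CPM), and Col1a2, Dcn and Lum had no count. Of the endothelial markers 0 of 4 were detected (summed 0.281 and 0.265 CPM), and Cdh5 and Kdr had no count. Of the leukocyte markers 1 of 5 was detected (Cd68, summed over the list 9.51 and 9.35 CPM), and Ptprc, Cd3e, Lyz2 and Adgre1 had no count.

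Plectin (Plec), dystonin (Dst) and the microtubule-actin crosslinking factor (Macf1) are plakins, proteins that hold actin, microtubules or intermediate filaments together and anchor them at junctions. Ahnak encodes a giant scaffold protein found under the plasma membrane. Nesprins (Syne genes) sit in the outer nuclear membrane, where the short KASH tail at their end reaches between the membranes and is held by the SUN domain of Sun1 or Sun2. SUN proteins in turn contact the lamina, whose A-type lamins come from Lmna, so that force on the cytoskeleton can reach the nucleus. In luminal mammary cells these genes act beside keratin filaments and desmosomes.

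The KASH tail is the feature that makes a nesprin an envelope linker, so the coding ends of the nesprin genes are shown. Each sequence is the last 90 coding bases and the stop codon of the transcript with the longest coding sequence, 5′ to 3′ on the gene's strand, from GENCODE M21 on GRCm38. Capitals mark the last 4 codons before the stop.
Syne1 (chr10:5022007-5022099, minus strand): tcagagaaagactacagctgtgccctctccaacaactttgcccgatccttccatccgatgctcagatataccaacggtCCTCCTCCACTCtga
Syne2 (chr12:76109952-76110044, plus strand): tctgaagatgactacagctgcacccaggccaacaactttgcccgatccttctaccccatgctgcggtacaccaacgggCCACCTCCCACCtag
Syne3 (chr12:104932165-104932257, minus strand): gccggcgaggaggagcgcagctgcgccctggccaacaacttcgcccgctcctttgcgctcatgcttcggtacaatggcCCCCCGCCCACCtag
Syne4 (chr7:30318909-30319001, plus strand): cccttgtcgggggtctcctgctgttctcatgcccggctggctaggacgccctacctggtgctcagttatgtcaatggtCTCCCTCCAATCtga
The capitals hold 3 codons of the form CCN in Syne1, Syne2 and Syne3 and 2 in Syne4, the nesprin gene of secretory epithelia. Compared from the stop codon without gaps, 69 of the 90 bases were identical between Syne1 and Syne2 (76.7%), and the other 5 pairs shared 40.0% to 46.7%.

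Prelamin A ends in a short signal that is farnesylated before the protein is cut to mature lamin A. The coding end of the longest Lmna transcript (chr3:88482074-88482348, minus strand, across an exon junction) is shown with the 4 codons of that signal in capitals.
Lmna: cagagctcccagaacTGCAGCATCATGtaa
Counts per gene hold lamin A and lamin C together, since both are spliced from Lmna.

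Ahnak owes its size to repeats. The most frequent in-frame run of 36 bases in its coding sequence, shown because it bears on how reads of this gene can be placed, occurs 8 times without a mismatch and 18 times with up to 4 mismatches, between coding bases 3838 and 11640 for the exact copies. Its first copy lies at chr19:9005191-9005226 on the plus strand.
Ahnak repeat: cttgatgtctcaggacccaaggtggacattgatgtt
A single exon holds 16623 bases, or 98.0%, of the Ahnak coding sequence. By contrast, the transcripts with the most exons have 146 in Syne1, 116 in Syne2, 103 in Dst and 102 in Macf1.

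The genes fall into a long and a short class. The exons of Dst cover 41.2 kb, those of Syne1 40.5 kb, Macf1 31.4 kb, Syne2 26.7 kb, Ahnak 19.9 kb and Plec 18.1 kb, against a median of 4.21 kb over the 13188 genes with a length that passed the filter on low counts. Dst, Syne1 and Macf1 rank 6, 7 and 15 in length among these genes. Sun1 (7.60 kb), Lmna (5.84 kb), Syne3 (5.55 kb) and Sun2 (5.42 kb) form the short class. All 10 genes described passed the filter, which used both libraries together.

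Of the 10 genes, 9 were detected, where 37.7% of all genes in the table were. Together they took 0.372% of the counts of replicate 1 and 0.452% of those of replicate 2, and Ahnak alone made up 57.8% and 62.1% of these. Ahnak ranked 13 among all genes by mean CPM. Levels of different genes can be compared only per length, and CPM divided by the exonic length in kb gave the order Ahnak, Lmna, Sun2, Plec, Sun1, Dst, Macf1, Syne2, Syne1 and Syne3. In all 9 pairs of neighbours in this order the ranges over the 2 libraries did not overlap. The closest pair was Plec and Sun1, with a ratio of 1.09, and Sun1 stood above Plec when levels were divided by the longest transcript or the longest coding sequence. Ahnak fell behind Lmna when levels were divided by the longest coding sequence, 146 against 223 CPM per kb. The other 7 pairs kept their order under both.

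**Figure D1:**
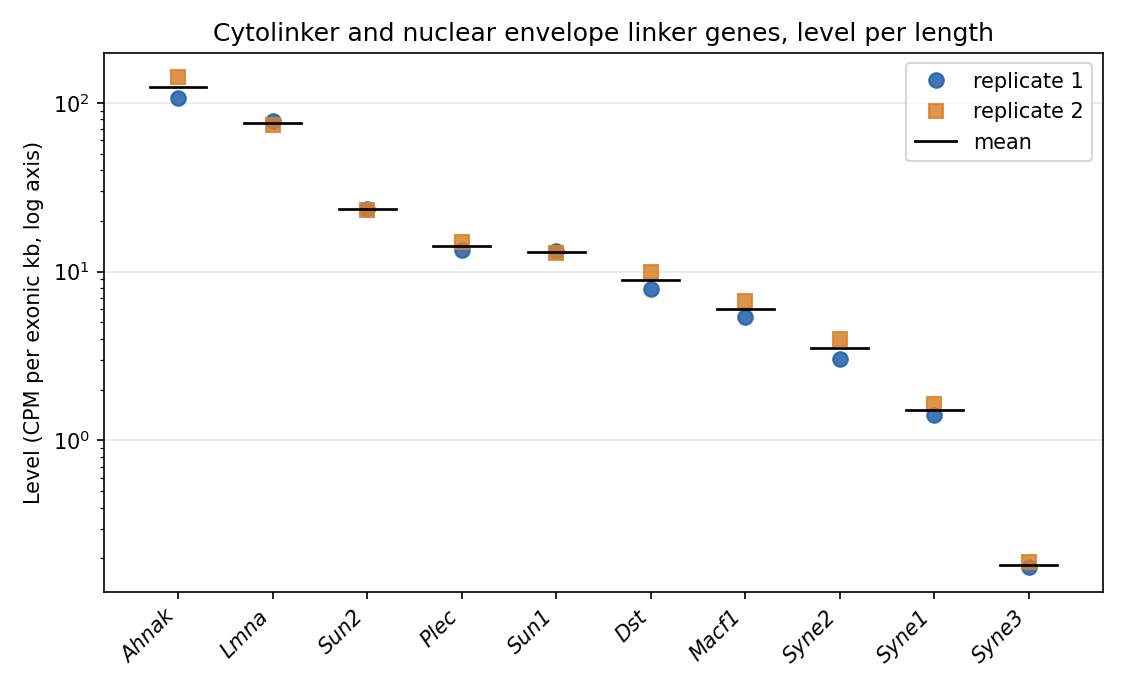
Level of each gene in CPM per kb of exon (log axis) in replicate 1 (circles) and replicate 2 (squares), with the mean as a bar. The means run from 124 for Ahnak to 0.184 for Syne3, and the squares lie above the circles for the 6 long genes and Syne3.

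Ahnak (chromosome 19, 8989284 to 9076914, GRCm38) had 76245 counts in replicate 1 and 95572 in replicate 2, or 2139 and 2818 CPM. Its mean of 124 ± 24.1 CPM per kb (SD, n = 2) placed it above 97.9% of detected genes on the scale per length. The 5 other genes nearest to it in log2 CPM over the 2 libraries were mt-Cytb, Actg1, Eef2, Ccnb1ip1 and Lcn2, at Euclidean distances of 0.23 to 0.40. With 2 libraries this likeness reflects little beyond the level. Its relative Ahnak2 stood at 2.71 ± 0.230 CPM per kb, and Ahnak was 42.1 and 49.2 times as high per exonic kb in replicates 1 and 2, or 19.3 times on average per kb of longest transcript. S100a10 and Anxa2, the calcium-regulated pair that binds AHNAK at the membrane, were also high, with S100a10 at 103 ± 3.29 CPM per kb and Anxa2 at 96.8 in replicate 1 and 93.1 in replicate 2. Anxa2 divided by Ahnak gave 0.903 in replicate 1 and 0.659 in replicate 2 per exonic kb, and a mean of 2.44 per kb of longest coding sequence. Myof, the myoferlin gene of membrane repair, reached 40.5 ± 0.898 CPM per kb, and its relative Dysf had 6 and 5 counts.

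Among the 3 giant plakins, Plec (chromosome 15, 76170974 to 76232574) was highest per length. It had 8711 and 9237 counts, or 244 and 272 CPM, a mean of 14.3 ± 1.09 CPM per kb. Plectin links keratin filaments to the integrin of hemidesmosomes. Dst (chromosome 1, 33908225 to 34308661) had 11566 and 13839 counts, or 324 and 408 CPM, a mean of 8.90 ± 1.44 CPM per kb. Macf1 (chromosome 4, 123349633 to 123684360), which guides microtubules along actin, had 5992 and 7173 counts, or 168 and 211 CPM, a mean of 6.04 ± 0.977 CPM per kb. Replicate 2 was the higher library for each of these genes. Dst stood 1.47 times above Macf1 per exonic kb in both libraries. On average it stood 1.95 times above Macf1 per kb of longest transcript and 1.84 times per kb of longest coding sequence. Plec divided by Dst gave 1.61 ± 0.138 per exonic kb but 1.07 per kb of longest transcript, because the exons of the many Dst isoforms cover far more sequence than any 1 transcript.

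All 4 remaining plakin genes of the list were detected. The desmosomal Dsp was the highest plakin of all, at 40.7 ± 3.44 CPM per kb, or 2.85 ± 0.0229 times Plec. Periplakin (Ppl) at 14.8 ± 0.399 CPM per kb lay level with Plec, while epiplakin (Eppk1) reached 6.73 ± 0.601 and envoplakin (Evpl) 1.20 ± 0.00868. Of the partners of plectin and of the epithelial dystonin isoform in hemidesmosomes, 6 of 7 were detected, led by the integrin gene Itgb4 (71.3 ± 1.45 CPM per kb) and the tetraspanin gene Cd151 (57.7 ± 0.695). Their collagen Col17a1 was low, with 56 and 49 counts, and the laminin chain gene Lama3 had 2 and 1 counts. Of the intermediate filament genes that plakins can bind 5 of 9 were detected, with Krt18 (847 ± 10.6 CPM per kb) and Krt8 (349 ± 9.60) highest. Nes, the nestin gene, reached 150 ± 3.46 CPM per kb, above Vim at 23.3 ± 1.64. The basal keratin genes Krt5 and Krt14 had 3 and 2, and 0 and 3 counts, and the muscle filament gene Des had none.

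The nesprin genes differed widely. Syne2 (chromosome 12, 75818134 to 76110926), whose giant protein binds actin at the nuclear surface, had 2895 and 3612 counts, or 81.2 and 107 CPM. Syne1 (chromosome 10, 5020917 to 5551482), the other giant actin-binding nesprin, had 2031 and 2252 counts, or 57.0 and 66.4 CPM. Per length Syne2 stood at 3.51 ± 0.669 and Syne1 at 1.52 ± 0.165 CPM per kb, a ratio of 2.29 ± 0.191. Replicate 2 was again higher for both. Syne3 (chromosome 12, 104929933 to 105009809), which binds plectin in place of actin, had 35 and 36 counts, or 0.982 and 1.06 CPM, just under the detection minimum in replicate 1. Syne4 was the highest nesprin gene per length, at 13.3 ± 0.331 CPM per kb from 1375 and 1355 counts. It stood 4.31 and 3.40 times above Syne2 in replicates 1 and 2, and 6.81 and 7.53 times above it on average when the longest transcript or coding sequence was used. Of the 6 other KASH and SUN genes on the list, Syne4 and Spag4 (59 and 41 counts) were detected. The KASH genes Ccdc155 (5 and 2 counts) and Lrmp (0 and 1) and the testis SUN genes Sun3 and Sun5 (1 and 0 each) were at or near the floor.

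Both broadly expressed SUN genes were present at similar levels in the libraries. Sun2 (chromosome 15, 79724070 to 79742536) had 4571 and 4239 counts, or 128 and 125 CPM, a mean of 23.4 ± 0.424 CPM per kb. Sun1 (chromosome 5, 139200637 to 139249840) had 3583 and 3309 counts, or 101 and 97.6 CPM, a mean of 13.0 ± 0.275 CPM per kb. Sun2 stood 1.79 ± 0.00526 times above Sun1 per exonic kb and 1.20 times per kb of longest transcript. The summed level of both SUN genes was 7.08 ± 1.28 times that of Syne1, Syne2 and Syne3, and 13.2 times with coding lengths. With Syne4 added to the nesprins the ratio was 1.97 ± 0.162.

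Lmna (chromosome 3, 88480147 to 88509956) had 16268 and 14728 counts, or 456 and 434 CPM, a mean of 76.3 ± 2.68 CPM per kb, above 96.2% of detected genes. Replicate 1 was slightly the higher library. The B-type lamin genes Lmnb1 and Lmnb2 stood at 27.7 ± 0.336 and 6.77 ± 0.379 CPM per kb. Lmna was 2.21 ± 0.0319 times their sum per exonic kb and 3.58 times per kb of coding sequence. All 13 genes of the lamina and inner nuclear membrane list were detected. The chromatin-bridging factor Banf1 was highest at 90.4 ± 0.0814 CPM per kb, followed by Lmnb1, the LEM protein gene Tmpo (27.0 ± 0.451) and the lamin B receptor gene Lbr (26.3 ± 0.212). Emerin (Emd) stood at 14.5 ± 0.735 CPM per kb. All 5 genes that process prelamin A were detected, with the farnesyltransferase subunit Fnta (17.1 ± 0.271 CPM per kb) and the protease gene Rce1 (15.5 ± 0.720) highest and Zmpste24, whose protease makes the final cut, at 11.2 ± 0.381.

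**Figure D2:**
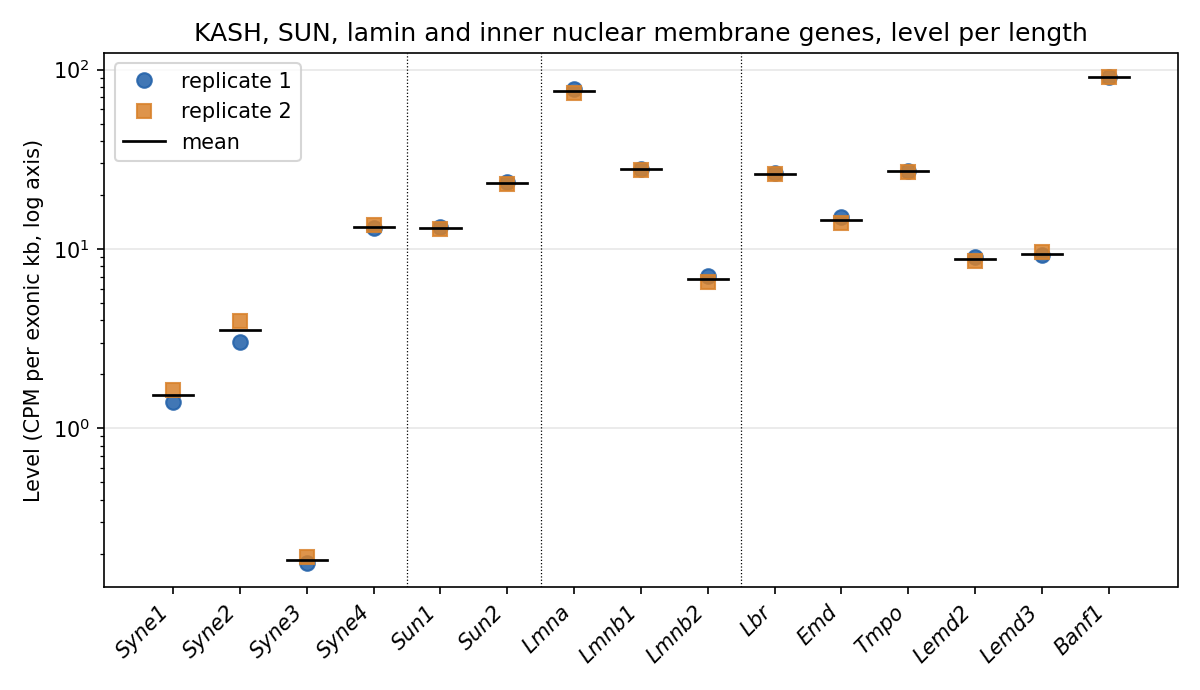
Level in CPM per kb of exon (log axis) of nesprin, SUN, lamin and inner nuclear membrane genes, separated by dotted lines, in replicate 1 (circles) and replicate 2 (squares) with the mean as a bar. Syne4 (13.3) lies above Syne1, Syne2 and Syne3, and Lmna (76.3) above Lmnb1 (27.7) and Lmnb2 (6.77).

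The long genes were higher in replicate 2, while the ratios of Sun1, Sun2 and Lmna lay near 0 and that of Syne3 could not be placed. The log2 ratio of replicate 2 to replicate 1, with its 95% interval for counting error alone, was 0.40 (0.38 to 0.41) for Ahnak and 0.39 (0.32 to 0.46) for Syne2. It was 0.33 for both Macf1 (0.28 to 0.38) and Dst (0.29 to 0.37). Syne1 followed at 0.22 (0.13 to 0.31) and Plec at 0.16 (0.11 to 0.20). In linear terms the largest of these, Ahnak, was 1.32 times as high in replicate 2. The ratio was -0.04 for Sun2 (-0.10 to 0.02) and Sun1 (-0.11 to 0.03) and -0.07 for Lmna (-0.10 to -0.04). Syne3, at 0.11, had too few counts to place (-0.60 to 0.83).

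At a log2 ratio of 0.25 or more, 4 of the 10 genes counted as higher in replicate 2, where 9.08% of the 13336 filtered genes and 0.75% of those at 10 CPM or more did, and none of the 10 lay at -0.25 or less, where 4.40% did. The nearest gene inside the threshold was Dst (0.33), whose counting interval lay wholly above it, and the nearest outside was Syne1 (0.22), whose interval included it. The counting interval lay above 0 for 6 of the 10 genes, against 9.05% of filtered genes, and below 0 for Lmna alone, against 10.4%. Because this ratio helped choose the genes, nothing is read from these shares. The median ratio over the 10 genes was 0.19, and over all filtered genes it was 0.00. Ahnak lay above 95.2% and Syne2 above 95.1% of filtered genes, Lmna above 22.8%.

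**Figure D3:**
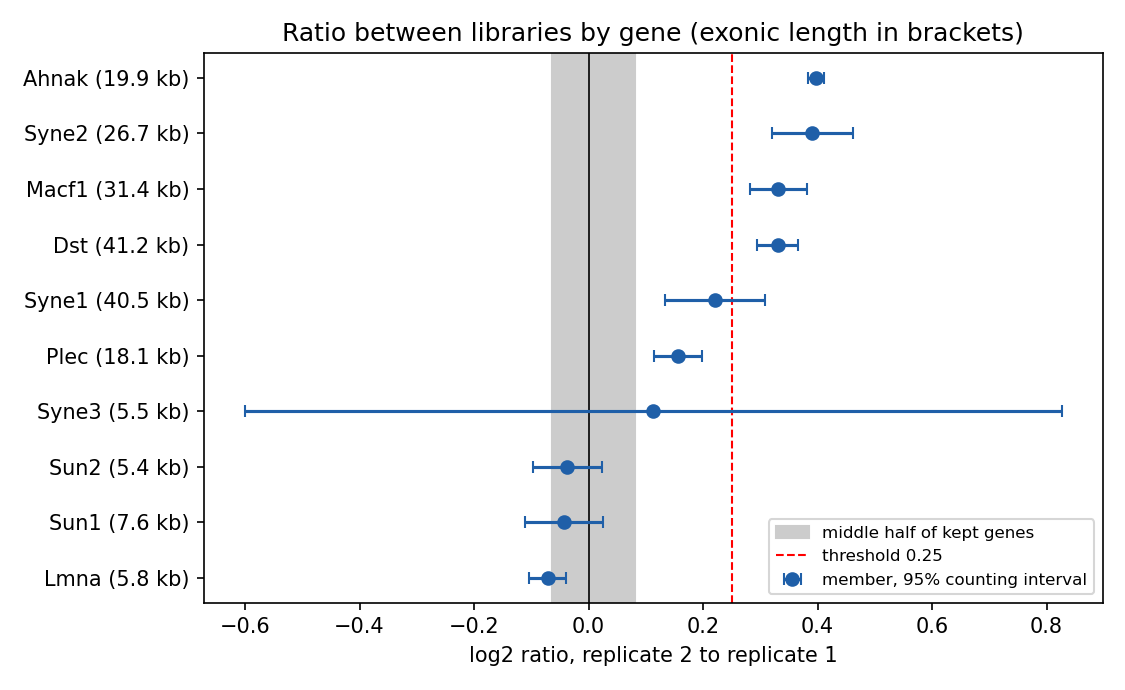
Log2 ratio of replicate 2 to replicate 1 for each gene (points) with its 95% counting interval (bars); exonic length stands beside each name. The grey band is the interquartile range of all filtered genes and the dashed line the threshold of 0.25, which Ahnak, Syne2, Macf1 and Dst exceed.

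Coding length moved with this ratio. Over the 8909 genes at 10 CPM or more with an annotated coding sequence, the median log2 ratio was -0.02 for coding sequences under 3 kb (7522 genes), 0.01 from 3 to 6 kb (1130 genes), 0.07 from 6 to 9 kb (194 genes), 0.16 from 9 to 12 kb (38 genes) and 0.24 at 12 kb or more (25 genes). Without the minimum of 10 CPM the medians of these classes were -0.01, 0.01, 0.07, 0.16 and 0.24. The last class then held 38 genes, of which 34 lay above 0, and the 32 not described here ranged from -0.34 to 0.73. With the minimum, all 25 genes of the last class were higher in replicate 2. Of these, 6 are Ahnak, Syne2, Macf1, Dst, Syne1 and Plec, which ranked 1, 2, 3, 4, 20 and 22 in the class. The other 19 had a median of 0.24 and a range of 0.10 to 0.33. Ahnak and Syne2 had higher values than any of these 19, but their counting intervals overlapped that of the highest, Mdn1 (0.26 to 0.40). Macf1 and Dst were level with the highest of the 19 within counting error, and Syne1 and Plec lay within their range. Since the ratio helped choose the 10 genes, this is a description only. Relative to the median of all filtered genes in the same class of coding length, none of the 10 genes reached 0.25. Ahnak then stood at 0.16, Syne2 at 0.15, Macf1 and Dst at 0.09, Syne1 at -0.02 and Plec at -0.08. These classes were chosen after the data were seen.

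**Figure D4:**
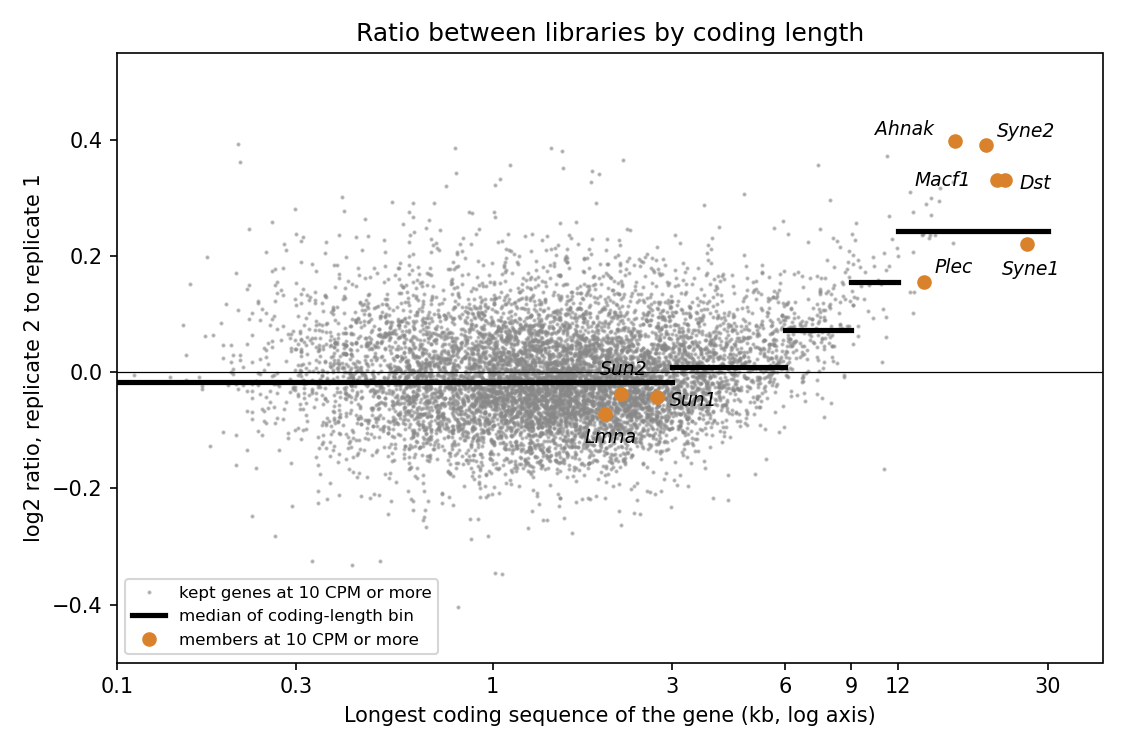
Log2 ratio of replicate 2 to replicate 1 against the longest coding sequence of each gene (log axis), for genes at 10 CPM or more (grey), with the 9 described genes that reach this level in orange and the median of each class of coding length as a black line. The lines climb from -0.02 under 3 kb to 0.24 at 12 kb or more, and Lmna, Sun1 and Sun2 sit at the short end near 0.

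Genes of other giant proteins had similar ratios. Many of them, such as Mdn1, also belong to the class of 12 kb or more, so this in part repeats the values above. Of 21 such genes off the cytoskeleton, fixed as a list, 19 passed the filter, and the ratios of these 19 ran from 0.08 (Lrp1) to 0.33 (Mdn1, a ribosome assembly factor), with a median of 0.23. At 0.25 or more stood 6 of the 19 and at -0.25 or less none, and for 17 the counting interval lay above 0. Among all filtered genes these shares were 9.08%, 4.4% and 9.05%. The genes of 2 smaller groups that act with the envelope linkers had ratios near 0, with medians of -0.03 over 13 lamina and inner membrane genes and -0.07 over 5 prelamin-processing genes. No gene of either reached 0.25 in size. All were above 10 CPM, where only 0.75% of genes lay at 0.25 or more, so nothing is read from this absence. Whether RNA length, RNA quality or library preparation has a part in the differences of the long genes was not tested.

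The median ratio showed no such order by exonic length over all filtered genes. Spearman's rho between exonic length and the ratio was 0.01 across the 13188 filtered genes with a length and 0.15 across the 8981 of them at 10 CPM or more, genes that are not independent replicates and share both libraries. Over the filtered genes the median ratio was 0.07 for exons under 1 kb, 0.02 from 1 to 2 kb and -0.01 from 2 to 4 kb. It was -0.01 from 4 to 8 kb, 0.01 from 8 to 12 kb and 0.05 at 12 kb or more. From the class of 4 to 8 kb upward the median therefore rose with exonic length. The value under 1 kb is also the ratio of a gene with equal counts in both libraries. The counting interval lay above 0 for 34.2% of genes at 12 kb or more and 8.33% of those under 1 kb, against 9.05% of filtered genes. Of 598 genes at 10 CPM or more with exons of 12 kb or more, Ahnak and Syne2 had the highest ratios. The noncoding Kcnq1ot1 followed (0.38), inside the counting interval of Syne2. Because the ratio helped choose Ahnak and Syne2, their rank is a description only. The median of these 598 was 0.05.

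The levels rest on sequence that is largely unique between genes. Of all 50-base windows in the transcripts of each gene, between 0% and 1.20% (Dst) also occurred in transcripts of another gene. Within the longest Ahnak transcript, however, 21.3% of windows occurred more than once, against 0.195% for Plec and 0% for the other 8 genes. How reads with several matches were counted is not given in the sources used here, so the Ahnak level is uncertain to that extent. The exons of 5 of the 10 genes overlap exons of another annotated gene, over at most 3.98% of their length (Sun1, with the opposite-strand 4930520M14Rik). Each gene has between 3 (Syne3) and 22 (Plec) annotated transcripts, which counts per gene do not tell apart.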

How the data were processed

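The authors deposited raw counts for each gene symbol, made from stranded mRNA libraries of column-extracted, DNase-treated RNA, per the labels' protocols. The submitters' processing notes list STAR 2.7.9a, featureCounts and mm10 without saying what each was used for. Annotation, strand setting and handling of multiply matched reads: not given in the sources used here. Columns were assigned by the replicate name in the labels.

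Counts were scaled with TMM in edgeR 4.0.16 (R 4.3.3), and filterByExpr kept 13336 genes. Log2 ratios used a prior count of 0.5. Counting intervals are exact Clopper-Pearson intervals (95%) and were tested on simulated data. Without molecular identifiers these intervals and the floor of 3 counts hold for counting error alone. Lengths and transcript sequences came from GENCODE M21 (GRCm38), where 98.1% of genes matched by a single symbol. The described genes, lists and settings were chosen with earlier results of these data known. Named genes are the 10 genes, the leading or uncounted members of each list, others a sentence needs, and the 5 nearest to Ahnak. Markers and lists were fixed together with these, while classes of coding length, overlaps and gene pairs came after the values were seen. No test between groups was possible with 1 group.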

Additional observations from a re-analysis of the deposited data

How the results depend on the processing

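The count of genes higher in replicate 2 changed by over 1.5 times with 2 of the settings tried. Of the 10 genes, 4 were at a log2 ratio of 0.25 or more, and 2 at 0.35 or more. Relative to the median of their class of coding length, a setting added after seeing the data, the count was 0 and the median ratio of the 10 genes was 0.038 in place of 0.19, by construction since the class medians are subtracted. Total counts, DESeq2 1.42.0 size factors, upper-quartile factors, prior counts of 0 and 5, classes of exonic length and a threshold of 0.15 kept the count within 1.5 times. The background share of genes at 0.25 or more was 19.1% without a filter and 0.750% at 10 CPM or more. Of the single ratios, 4 moved beyond their counting interval with classes of exonic length, 6 with classes of coding length and that of Ahnak with total counts. Of the 9 neighbour pairs, 8 kept their order with the longest transcript and 7 with the longest coding sequence. Leaving out 1 library gave 9 to 10 detected genes and 9 of 9 neighbour pairs in order. A ratio needs both libraries, so it has no value with 1 left out. No paired analysis was possible because there is 1 group. Depth limited Syne3 most, whose counting interval was the widest of the 10.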

Other observations

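Large actin linkers outside the plakin family were abundant. Of 12 spectrin and actin cross-linker genes 11 were detected, led per length by the alpha-actinin gene Actn4 (323 ± 13.1 CPM per kb, n = 2) and the filamin gene Flna (103 ± 4.02), while the muscle filamin gene Flnc had 0 and 1 counts. Utrophin (Utrn) stood at 10.9 ± 1.06 CPM per kb and dystrophin (Dmd) at 0.803 ± 0.0657. None of the 11 filtered genes of this list reached a log2 ratio of 0.25 in size between the libraries, and they ranged from -0.17 (Dmd) to 0.20 (Utrn). Among all filtered genes 9.08% lay at 0.25 or more and 4.4% at -0.25 or less. All 11 were above 10 CPM, where only 0.75% of genes lay at 0.25 or more, so nothing is read from this absence. The counting interval lay above 0 for 6 of the 11 and below 0 for 3, against 9.05% and 10.4% of filtered genes.

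All 8 genes of motors and actin regulators that act at the nucleus were detected. The kinesin gene Kif5b, whose motor nesprin-4 recruits, was highest at 41.7 ± 0.896 CPM per kb, and the dynein regulator gene Pafah1b1 followed at 32.1 ± 0.813. The dynein heavy chain gene Dync1h1 had the highest ratio of the list (0.24), and its coding sequence of 13932 bases is in the longest class. All 7 microtubule partners of the spectraplakins were detected too, with the end-binding gene Mapre1 (26.4 ± 1.18 CPM per kb) and the kinase gene Gsk3b (26.0 ± 0.481) highest.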
